A study of Mus musculus with 70 samples.

Results

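DNA repair genes were followed in the lungs of mice given 13 chemicals. The series' design text counts 7 of them as lung carcinogens (the positive class) and 6 not (the negative class). The 33 genes were those of a fixed list whose symbols appear in the table of the array's probe sets, and each was read from its brightest probe set, by the mean of the 70 arrays. All 33 were found among 18193 genes with a probe set of 1 symbol. A filter on low values kept 14593 genes in all and 31 of the 33 repair genes. Brca1 and Chek1, with mean log2 signals of 4.22 and 3.78, lay under the limit of 4.25 and entered no comparison.

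The cell's DNA is mended by several routes that differ in the lesion they take. Base excision repair removes small damaged bases through a glycosylase, the nuclease Apex1, a polymerase and a ligase, whereas nucleotide excision repair cuts out bulky adducts and mismatch repair corrects replication errors. Broken strands are joined by homologous recombination or by end joining, crosslinks are opened by the Fanconi anaemia proteins, and the kinases Atm and Atr signal the damage to the checkpoint kinases Chek1 and Chek2. Many chemicals that cause lung tumours in rodents form DNA adducts after metabolism in the airway epithelium, so these pathways are a natural place to look in such a study.

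Each array held RNA of the right lung lobe of 1 female B6C3F1 mouse, a hybrid of the C57BL/6 and C3H strains, aged 5 weeks at the start and 18 weeks at the end of 13 weeks of exposure. The diet, offered on 7 days a week, held 1 of 7 chemicals. The positive ones were 1,5-naphthalenediamine (2000 ppm) and, at 1250 ppm, 2,2-bis(bromomethyl)-1,3-propanediol. The negative ones were the amine N-(1-naphthyl)ethylenediamine dihydrochloride (2000 ppm), the fungicide pentachloronitrobenzene (8187 ppm), 4-nitroanthranilic acid (10000 ppm) and the insecticides malathion (16000 ppm) and diazinon (200 ppm). The other 6 were given by gavage on 5 days a week, at 5 ml/kg. Corn oil was the vehicle of 4 positive chemicals, namely 2,3-benzofuran (240 mg/kg), coumarin (200 mg/kg), 1,2-dibromoethane (62 mg/kg) and the solvent benzene (100 mg/kg). Water was the vehicle of the positive N-methylolacrylamide (50 mg/kg) and of the negative 2-chloromethylpyridine hydrochloride (250 mg/kg). The number before the hyphen of the animal identifier divides the mice into set 1 and set 2; what the number stands for is unstated in the labels. Set 1 held 3 mice in each group, namely 1,5-naphthalenediamine, N-(1-naphthyl)ethylenediamine dihydrochloride, pentachloronitrobenzene, 2,3-benzofuran, feed controls and corn oil controls. Set 2 held 4 mice in every other group except its corn oil controls, which numbered 8.

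The lobes carried the RNA of many cell types. Markers of lung epithelium were high on every array, with Sftpc between 14.2 and 14.5, Scgb1a1 between 13.9 and 14.4 and Ager between 13.7 and 14.3. Of markers of other organs, Umod and Gcg reached at most 3.37, whereas Alb, a liver gene, reached 12.3 and Myh6, a heart gene, reached 11.4 on single arrays. In such bulk samples fewer cells of a type and less RNA per cell cannot be told apart. The array medians ran from 5.41 to 5.52, and precision is limited by how many arrays a group has.

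The upstream windows of 4 members named in the results are shown. Atr and Ercc5 were higher and Ung lower with N-methylolacrylamide, and Atm varied with Atr between mice. Each line gives the 250 bases before the start of the gene in RefSeq, build GRCm38.p6, 5′ to 3′ on the gene's strand. Capitals mark the GC box GGGCGG, the CCAAT box CCAAT and the E2F motif TTTNNCGC on either strand, and none of these motifs overlapped another in these windows.
Atr: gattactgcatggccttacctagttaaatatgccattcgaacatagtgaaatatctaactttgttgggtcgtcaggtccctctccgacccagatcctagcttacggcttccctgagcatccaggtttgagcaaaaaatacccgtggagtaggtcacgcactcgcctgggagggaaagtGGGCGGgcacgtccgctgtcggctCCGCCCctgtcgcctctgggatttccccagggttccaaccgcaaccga
Ercc5: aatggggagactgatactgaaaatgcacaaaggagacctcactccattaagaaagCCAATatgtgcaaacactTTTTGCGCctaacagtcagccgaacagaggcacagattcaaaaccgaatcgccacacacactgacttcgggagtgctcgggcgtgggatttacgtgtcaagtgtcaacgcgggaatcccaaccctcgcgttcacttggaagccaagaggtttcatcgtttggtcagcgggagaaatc
Ung: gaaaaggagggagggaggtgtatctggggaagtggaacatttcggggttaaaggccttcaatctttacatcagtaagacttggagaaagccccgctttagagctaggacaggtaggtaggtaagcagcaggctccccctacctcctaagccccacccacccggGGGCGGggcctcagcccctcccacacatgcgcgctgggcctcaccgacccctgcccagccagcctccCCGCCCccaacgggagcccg
Atm: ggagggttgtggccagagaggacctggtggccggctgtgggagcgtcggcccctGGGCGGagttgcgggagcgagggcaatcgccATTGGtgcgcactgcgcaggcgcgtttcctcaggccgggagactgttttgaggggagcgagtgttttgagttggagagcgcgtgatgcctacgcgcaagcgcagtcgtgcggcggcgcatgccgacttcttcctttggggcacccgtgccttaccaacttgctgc
These windows lie at chr9:95857347-95857596 (plus strand, Atr), chr1:44147494-44147743 (plus strand, Ercc5), chr5:114130185-114130434 (plus strand, Ung) and chr9:53536672-53536921 (minus strand, Atm). The GC box stood in the windows of Atr, Ung and Atm, the CCAAT box in those of Ercc5 and Atm, and the E2F motif in that of Ercc5 alone among the 4. RefSeq windows were matched for 29 of the 33 members, and for Fancd2, Polb, Rad50 and Nbn none is shown. Of the 29, 18 held the GC box (62.1%, against 35.4% of 27025 genes), 14 the CCAAT box (48.3%, against 37.5%) and 4 the E2F motif (13.8%, against 4.94%). Those 4 were Brca2, Xrcc6, Ercc5 and Chek2. The 27025 genes are all those with a window, not the genes tested on the arrays, and the shares were not compared by a test. A match describes the letters of the window and no more.

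Few repair genes were called with any chemical, at a rate near that of all genes. Of 403 tests, 31 members in 13 comparisons, 8 passed an adjusted p of 0.05 (1.99%), against 2.57% of the 189709 tests of all genes. The 8 calls fell on 7 members: Nbn, Rad50, Atr, Ercc5 and Ung with N-methylolacrylamide, Polb with 2,3-benzofuran and with malathion, and Fanca with 1,2-dibromoethane. Unadjusted p-values under 0.05 numbered 47, or 11.7% of the member tests, against 12.5% of the tests of all genes. Several comparisons share their controls, so that these tests are not independent of each other.

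**Figure D1:**
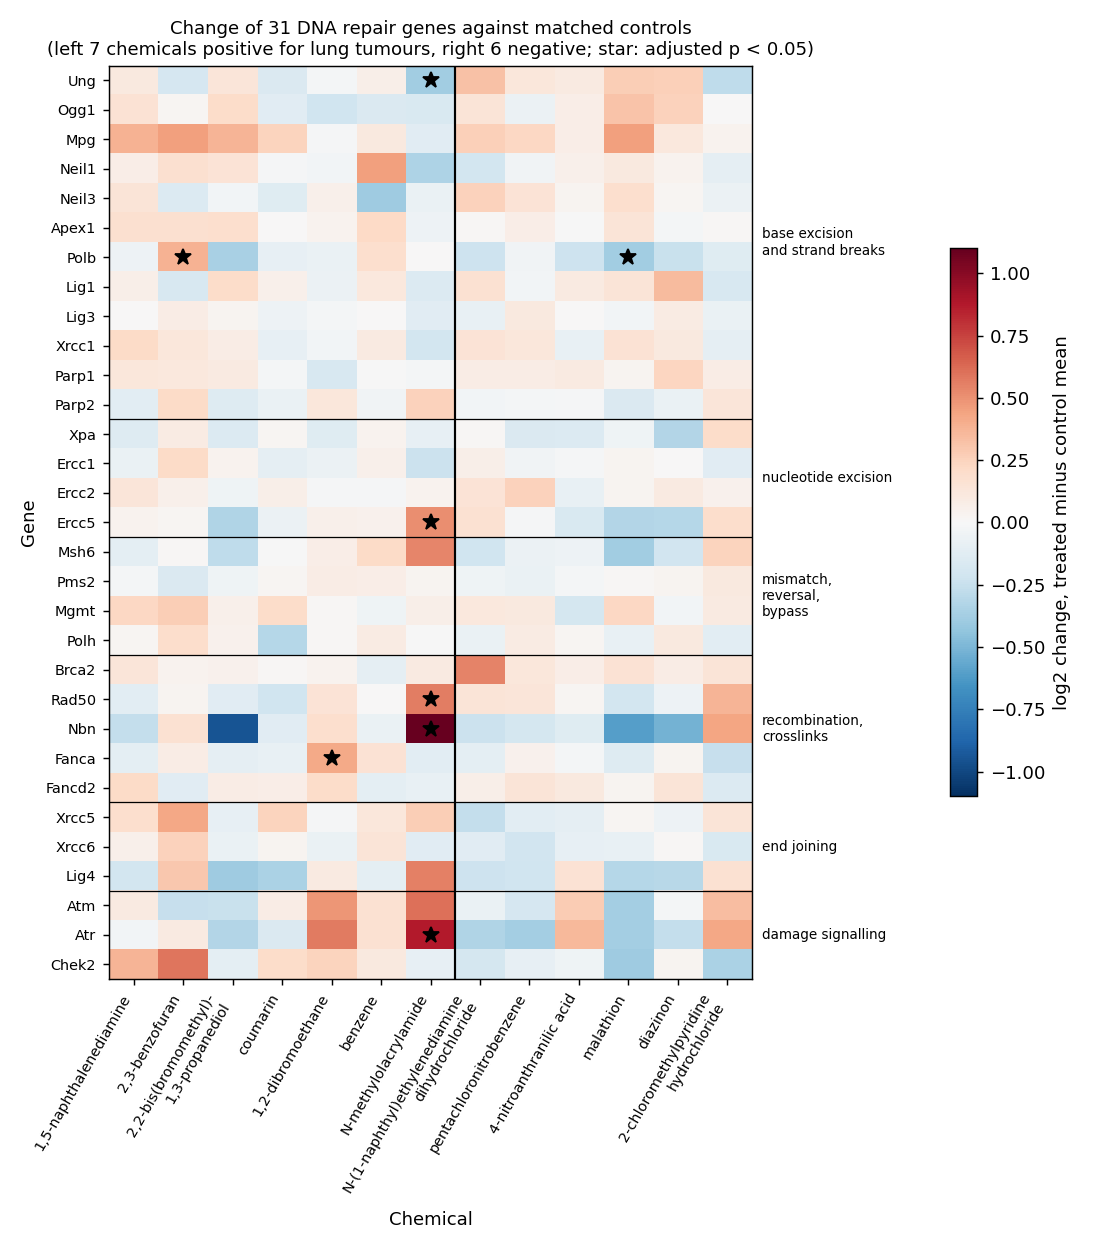
Change of the 31 DNA repair genes (rows, grouped by role) with each of 13 chemicals (columns), as the log2 difference of the treated and the matched control mean, in colour. Stars mark the 8 changes with an adjusted p under 0.05, of which 5 stand in the column of N-methylolacrylamide.

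N-Methylolacrylamide, an acrylamide derivative, gave the largest number of calls. With this chemical 2605 of 14593 genes were called (17.9%), 1564 higher (10.7%) and 1041 lower (7.13%). Of the 31 members 5 were called (16.1%), 4 of them higher and 1 lower, a share near that of all genes. At unadjusted p under 0.05 there were 11 members (35.5%, against 34.6% of all genes). The median change of the members was -0.02 log2 units, beside -0.08 for all genes.

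Nbn encodes nibrin, which with Rad50 and the nuclease Mre11 forms the complex that binds broken DNA ends and calls in Atm. Its log2 signal was 6.39, 7.01, 7.22 and 6.52 in the 4 treated mice and 5.22, 5.41, 5.75 and 6.39 in the 4 water controls. The lowest treated mouse and the highest control stood side by side, without overlap. The change was 1.09 ± 0.30 (standard error of the fit; adjusted p = 0.00996). Rad50, the clamp of the same complex, read 7.08, 7.42, 7.51 and 7.16 in the treated mice and 6.76, 6.66, 6.92 and 6.59 in the controls. Every treated mouse lay above every control, and the change was 0.56 ± 0.15 (adjusted p = 0.00996).

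Atr, the kinase that responds to single-stranded DNA at stalled forks, read 4.91, 5.59, 5.93 and 4.89 in the treated mice and 4.37, 4.13, 4.51 and 4.84 in the controls. The groups did not overlap, but 2 treated mice stood close to the highest control. The change was 0.87 ± 0.31 (adjusted p = 0.0428). Ercc5, the endonuclease that makes the 3′ cut in nucleotide excision repair, read 7.05, 7.27, 7.35 and 7.37 with N-methylolacrylamide and 6.33, 6.63, 6.60 and 7.44 in the water controls. Here the groups overlapped, because 1 control lay above all treated mice. The change was 0.51 ± 0.15 (adjusted p = 0.0148).

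Ung, the glycosylase that removes uracil, was the member called lower. It read 4.63, 4.45, 4.49 and 4.70 in the treated mice and 5.06, 4.97, 5.04 and 4.74 in the controls, without overlap. The change was -0.38 ± 0.11 (adjusted p = 0.0154). Of the members that were not called, 6 had an unadjusted p under 0.05 with N-methylolacrylamide. Atm (0.61 ± 0.23, adjusted p = 0.0567), the mismatch reader Msh6 (0.54 ± 0.21, adjusted p = 0.0644), the end joining ligase Lig4 (0.55 ± 0.22, adjusted p = 0.0744) and Parp2 (0.25 ± 0.12, adjusted p = 0.135) had positive values. Ercc1 (-0.23 ± 0.09, adjusted p = 0.0643) and the glycosylase Neil1 (-0.34 ± 0.16, adjusted p = 0.125) had negative ones.

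The water controls themselves stood at one end of the range for these genes. In set 2 their mean was the lowest of the 12 groups for Nbn (5.69 ± 0.51, SD, n = 4), Rad50 (6.73 ± 0.14), Atr (4.46 ± 0.30) and Ercc5 (6.75 ± 0.48). For Nbn the corn oil controls of set 2 ran from 5.74 to 7.67 with a median of 6.34, a range that holds all 4 treated values. Against the mice given 2-chloromethylpyridine hydrochloride, which had the same vehicle, the changes with N-methylolacrylamide were 0.65 for Nbn, 0.18 for Rad50, 0.45 for Atr, 0.31 for Ercc5 and -0.11 for Ung, and 0 members were called by limma. With the water and corn oil controls of set 2 pooled, the changes were 0.45, 0.28, 0.50, 0.16 and -0.22 in the same order, and again 0 were called. The direction of all 5 stayed the same in both, and every one of the 5 calls was lost. The share of all genes called in these fits is not given here, so the loss cannot be told from one over all genes. The pooled controls also mix the water and corn oil vehicles.

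**Figure D2:**
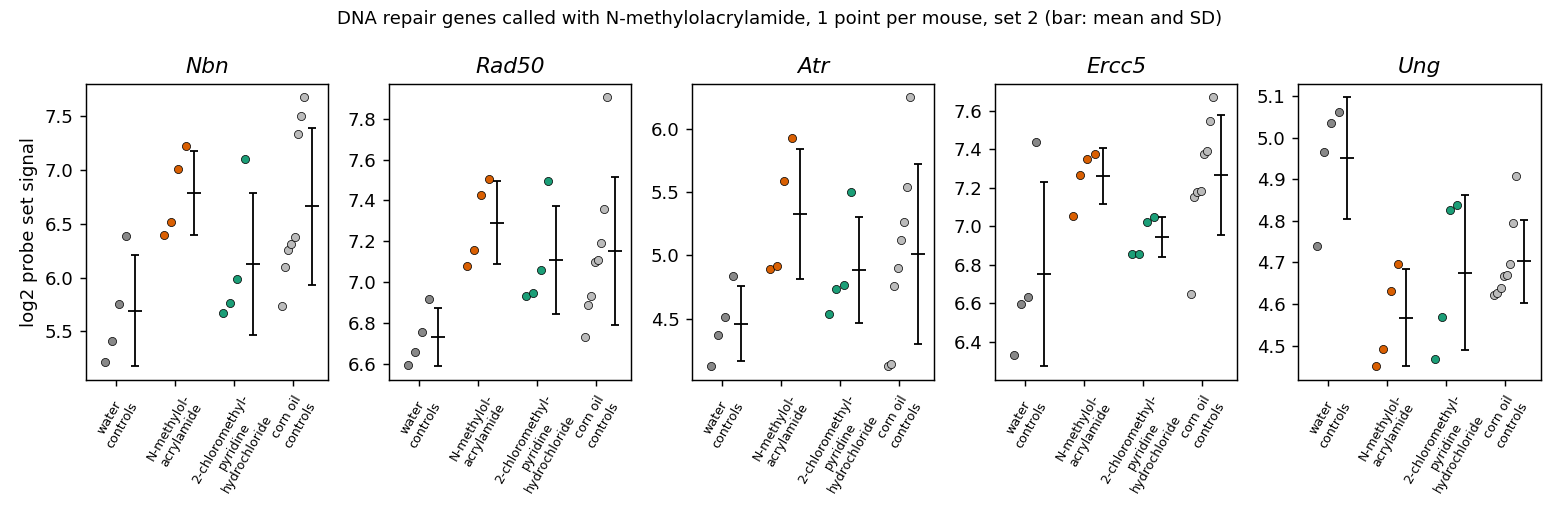
Log2 probe set signal (vertical axis) of the 5 DNA repair genes called with N-methylolacrylamide, in 4 groups of set 2 (horizontal axis), 1 point per mouse, with the mean and SD beside the points. Treated mice lie apart from the water controls for all but Ercc5, and within the span of the corn oil controls for Nbn, Rad50, Atr and Ercc5.

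Probe sets of the same gene did not always move alike. In this comparison the second probe sets of Rad50 and Ercc5, both of low signal, had changes of -0.08 and -0.10, and those of Atr 0.49 and 0.03. When a gene's probe sets were averaged, Atr (0.46, adjusted p = 0.101) and Ercc5 (0.21, adjusted p = 0.0632) were no longer called, and Rad50 was at 0.24 (adjusted p = 0.0465). Single mice also decided these calls. Without water control 2-124 no member was called, and Nbn was at 1.00 (adjusted p = 0.0679). Without treated mouse 2-106 none was called either, with Nbn at 0.95 (adjusted p = 0.0546). Rad50 alone remained without control 2-121, 3 members were called without treated mouse 2-102, and 8 without control 2-129. The share of all genes called without each of these mice is not given here. Other measures were read in the same mice. RNA degradation can be read from control probe sets of Actb and Gapdh as their 3′ minus 5′ log2 difference. It lay between 0.0832 and 0.164 in the water controls and between 0.114 and 0.239 in the treated mice. With that difference as a covariate all 5 members remained called. The marker counts that follow stand beside 17.9% of all genes called, and were not tested against that share. Of 18 proliferation markers 3 were called higher (Mcm4, Top2a and Mki67), and their mean level per mouse ran from 6.54 to 7.23 in treated mice and from 6.42 to 6.54 in the water controls. Of 9 ciliated cell markers 0 were called by limma and 2 had an unadjusted p under 0.05; their mean level ran from 8.09 to 8.36 against 7.89 to 8.15. Of 8 endothelial markers 2 (Emcn and Tek) were called higher, with mean levels of 10.64 to 10.77 in treated mice and 10.60 to 10.83 in the controls; 3 of the 8 changes were positive and their median was -0.18. Of 10 neutrophil and macrophage markers 1, Mrc1, was called higher and 3 changes were positive (median -0.09), with mean levels of 8.72 to 9.07 in treated mice and 8.39 to 9.22 in the controls. The part of these markers in the result was not tested.

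Other genes of the repair pathways, 98 on fixed lists of which 80 passed the filter, were also tested with N-methylolacrylamide. Of these 80, 10 were called higher and 7 lower, with a median change of -0.08, where of all genes 17.9% were called, 10.7% higher and 7.13% lower, and the median was also -0.08. The counts of the single lists below were not tested against that background. Translesion synthesis, which copies past damage, had 3 of 9 genes called, all higher, namely Rev3l (0.91 ± 0.23), Polk (0.65 ± 0.19) and Rev1 (0.45 ± 0.16). Of 15 damage signalling genes, 4 were called higher, Rad17 (0.71 ± 0.18), Topbp1 (0.81 ± 0.24), Rnf168 (0.35 ± 0.13) and the member Atr, and Rad9a was lower (-0.37 ± 0.12). Nucleotide excision repair had 6 of 21 genes called and 4 positive changes of 21, with a median of -0.16. Gtf2h1 (0.74 ± 0.18), Cetn2 (0.50 ± 0.15) and the member Ercc5 were higher, and Gtf2h4 (-0.43 ± 0.14), Gtf2h3 (-0.40 ± 0.13) and Uvssa (-0.51 ± 0.18) lower.

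Base excision repair had 3 of 20 genes called with N-methylolacrylamide, all lower. They were the member Ung and the glycosylases Nthl1 (-0.39 ± 0.13) and Smug1 (-0.30 ± 0.11). The mismatch gene Msh3 (0.49 ± 0.16) and the end joining factor Xrcc4 (0.59 ± 0.18) were higher, each the one call of its list, and Faap24 of the Fanconi anaemia list was lower (-0.35 ± 0.11). Outside repair, the p53 targets Ccng1 (1.21 ± 0.25) and Mdm2 (0.47 ± 0.14) were higher and Cdkn1a, the cell cycle inhibitor p21, lower (-0.83 ± 0.31, adjusted p = 0.0497), of 11 such genes measured. Of these 11 changes 3 were positive, and their median was -0.16. All these comparisons used the same 4 water controls.

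Polb, the polymerase that fills the gap in short-patch base excision repair, was the member with the most unadjusted p-values under 0.05, in 7 of the 13 comparisons. With 2,3-benzofuran it read 9.49, 9.12 and 9.06 in the 3 treated mice and 8.93, 8.82 and 8.77 in the 3 corn oil controls of set 1. The groups did not overlap, and 1 treated mouse stood above the other two. The change was 0.38 ± 0.11 (adjusted p = 0.0315), the one call among 31 members (3.23%), while 4.07% of all genes were called, 3.55% higher. Its probe sets differed in this comparison: the 2 brightest gave 0.38 and 0.23 and the other two -0.39 and -0.50, and their mean was -0.07 (adjusted p = 0.914). The highest treated mouse, 1-10, had a 3′ minus 5′ difference of 0.523, the highest of set 1, against 0.161 and 0.102 in the other treated mice. Without it the change of Polb was 0.25 (adjusted p = 0.662), and with that difference as a covariate it was 0.38 (adjusted p = 0.0178). The call was also lost without any 1 of the 3 controls (1-22, 1-24 or 1-25), with adjusted p of at least 0.0709, and with only the 6 arrays of both groups in the fit (adjusted p = 0.499).

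With malathion, an organophosphate insecticide in feed, Polb was lower. It read 8.88, 8.83, 8.84 and 8.95 in the treated mice and 9.24, 9.21, 9.40 and 9.21 in the feed controls of set 2, with no overlap. The change was -0.39 ± 0.09 (adjusted p = 0.0158), again the one member called, while 2.19% of all genes were called, 1.16% lower and 1.03% higher. All 4 probe sets of Polb had negative values there, between -0.42 and -0.08. The call was lost without control 2-44 (-0.34, adjusted p = 0.0773), without treated mouse 2-38 (-0.37, adjusted p = 0.0542) and with the mean of the 4 probe sets (-0.31, adjusted p = 0.243).

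The feed controls of set 2 had the highest mean of Polb among the 18 groups (9.26 ± 0.09, SD, n = 4), next to 2,3-benzofuran (9.22 ± 0.23, n = 3). The values of both groups overlap. They differ in set, vehicle and treatment and were not compared by a test. The other chemicals in feed of set 2, which share these controls with malathion, had changes of -0.36 ± 0.09 with 2,2-bis(bromomethyl)-1,3-propanediol (adjusted p = 0.211), -0.25 ± 0.09 with diazinon (adjusted p = 0.883) and -0.23 ± 0.09 with 4-nitroanthranilic acid (unadjusted p = 0.0169). In set 1, the feed controls had a mean of 8.98 ± 0.12 (n = 3). The change with 2,3-benzofuran minus that with malathion, which have no mouse in common, was 0.77 ± 0.14 (95% interval 0.48 to 1.05, adjusted p = 0.00163 by limma over all genes), a contrast chosen after seeing the data.

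**Figure D3:**
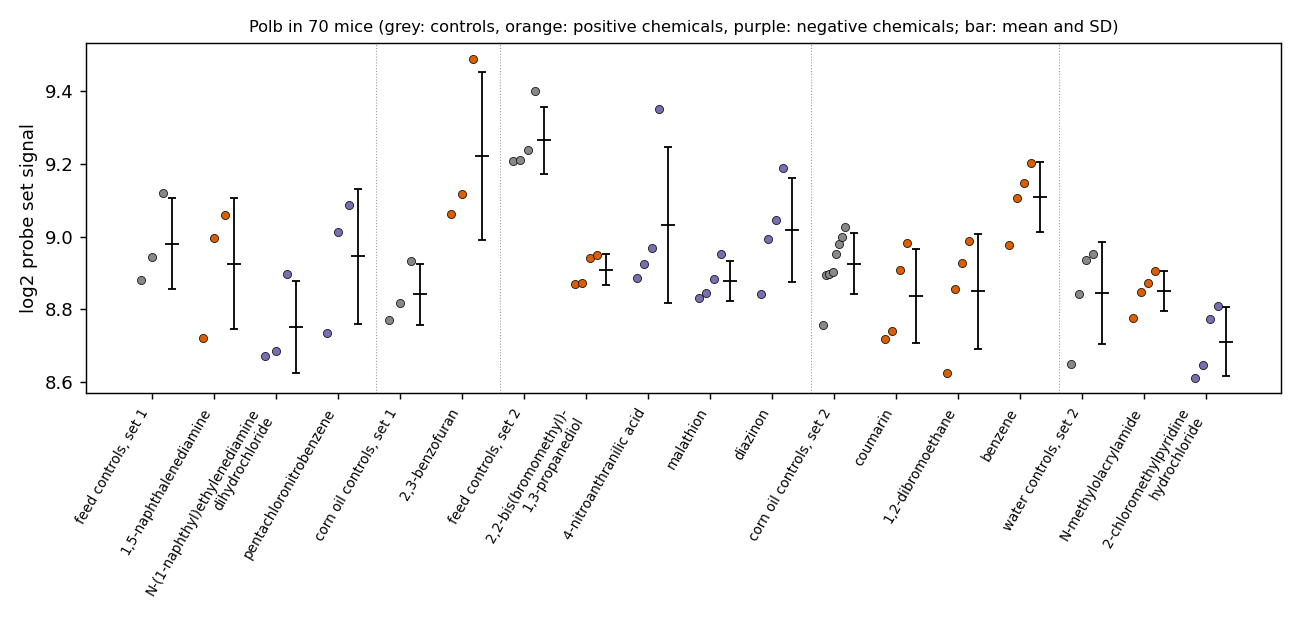
Log2 signal of Polb (vertical axis) in all 70 mice by group (horizontal axis), with the mean and SD beside the points; dotted lines part the sets and vehicles. The feed controls of set 2 (9.21 to 9.40) lie above all 4 mice given malathion (8.83 to 8.95), and the 3 mice given 2,3-benzofuran lie above their controls.

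Fanca, a scaffold of the Fanconi anaemia core complex that starts crosslink repair, was the member called with 1,2-dibromoethane, a bifunctional alkylating agent. It read 5.54, 5.89, 5.38 and 5.82 in the treated mice. In the 8 corn oil controls the lowest was 5.02, the median 5.25 and the highest 5.42, so that 1 treated mouse lay within the range of the controls. The change was 0.41 ± 0.12 (adjusted p = 0.0346), 1 call among 31 members (3.23%), where 4.03% of all genes were called, 1.94% higher. Without treated mouse 2-54 it was 0.34 (adjusted p = 0.156), without 2-58 it was 0.36 (adjusted p = 0.131), and without control 2-95 it was 0.39 (adjusted p = 0.0570). Treated mouse 2-56, whose 3′ minus 5′ difference was 0.989, had the lowest Fanca of the treated mice, and without it the change was 0.50 (adjusted p = 0.0188). With the mean of both Fanca probe sets the change was 0.26 (adjusted p = 0.0764), and with only the 12 arrays of both groups in the fit the adjusted p was 0.247.

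Parp1 (-0.18 ± 0.07), Atm (0.49 ± 0.20), Atr (0.57 ± 0.27) and the Fanconi anaemia protein Fancd2 (0.20 ± 0.10) also had unadjusted p-values under 0.05 with 1,2-dibromoethane and were not called. Of the other 80 repair genes, Rad23b, which helps to find lesions (-0.45 ± 0.09, adjusted p = 0.00164), Parp3 (-0.39 ± 0.09, adjusted p = 0.0114) and Ube2a (-0.28 ± 0.08, adjusted p = 0.0268) were lower and Clspn, the adaptor between Atr and Chek1, was higher (0.29 ± 0.08, adjusted p = 0.0312). Ciliated cell markers were called higher in 3 of 9 with this chemical; their mean level ran from 8.23 to 8.69 in treated mice and from 7.70 to 8.36 in the corn oil controls. Siglecf of 10 neutrophil and macrophage markers and Sftpa1 of 10 lung epithelial markers were called lower, and Mzb1 of 9 B and plasma cell markers higher. The part of these markers in the result was not tested.

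With 2,3-benzofuran the members had a median change of 0.10, beside 0.06 for all genes, and 25 of 31 changes were positive. The glycosylase Mpg (0.45 ± 0.17, adjusted p = 0.116), Chek2 (0.59 ± 0.22, adjusted p = 0.121) and the Ku protein Xrcc5 (0.42 ± 0.19, adjusted p = 0.230) were not called. Without treated mouse 1-8, Chek2 and Mpg were called beside Polb. Mouse 1-10, with a 3′ minus 5′ difference of 0.523, remained in that fit. It read 7.28 for Chek2, against 6.48 and 6.42 in the other treated mice. For Mpg it read 7.68, against 7.26 and 7.025. Among the other repair genes Aptx, which repairs abortive ligation ends, was higher (0.63 ± 0.19, adjusted p = 0.0453), as was Gtf2h5 (0.42 ± 0.12, adjusted p = 0.0387), and Rad18, the ligase that marks stalled forks, was lower (-0.85 ± 0.25, adjusted p = 0.0386). Of 18 proliferation markers 1 was called, Mki67, which was lower, and of 9 ciliated cell markers 2 were called higher; the mean level of the ciliated markers ran from 8.66 to 9.06 in treated mice and from 8.12 to 8.46 in controls. Their part in these values was not tested.

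With malathion, 7 members had an unadjusted p under 0.05. Besides Polb they were Mpg (0.45 ± 0.15, adjusted p = 0.0792), Ogg1, the glycosylase for oxidised guanine (0.31 ± 0.13), Ung (0.27 ± 0.11), Ercc5 (-0.32 ± 0.15), Nbn (-0.60 ± 0.30) and Chek2 (-0.39 ± 0.19). Of the other repair genes Alkbh3, which reverses alkylated bases, was higher (0.51 ± 0.12, adjusted p = 0.0128) and Trp53bp1, which gathers at double-strand breaks, lower (-0.50 ± 0.12, adjusted p = 0.0157). Of 12 T and NK cell markers 2 were called higher with malathion, with mean levels of 6.75 to 7.32 in treated mice and 6.72 to 6.84 in the controls. Of 9 B and plasma cell markers 1 (Cd79a) was called higher, with mean levels of 7.38 to 8.08 against 6.78 to 7.13, and of 10 lung epithelial markers 2 (Scgb3a2 and Scgb1a1) were lower while 7 changes were positive (median 0.01), with mean levels of 13.2 to 13.4 against 13.3 to 13.4. Their part in these values was not tested.

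With the other 9 chemicals 0 members were called by limma. For coumarin, where 4.09% of all genes were called, 1 member had an unadjusted p under 0.05, Polh, the polymerase that copies past ultraviolet lesions. It read 5.45, 5.88, 6.30 and 6.60 in the treated mice, against a lowest of 6.12, a median of 6.36 and a highest of 6.61 in the corn oil controls, an overlap. The change was -0.32 ± 0.11 (adjusted p = 0.0960). Without treated mouse 2-76 or 2-80 it was called, at -0.40 and -0.50. Rad51b, a recombination factor, was the one other repair gene called with coumarin (0.63 ± 0.18, adjusted p = 0.0337). Beside it, 4 of 9 ciliated cell markers were called higher with coumarin, with mean levels of 8.21 to 8.68 in treated mice and 7.70 to 8.36 in the corn oil controls. Called lower were 3 of 12 T and NK cell markers (6.47 to 6.95 against 6.52 to 7.31), 3 of 8 endothelial markers (10.39 to 10.55 against 10.60 to 10.83) and 1 of 3 erythroid markers (6.69 to 6.88 against 6.59 to 8.15), and 1 of 10 lung epithelial markers was called higher. The part of these markers was not tested.

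For 1,5-naphthalenediamine, 1.11% of all genes were called, and 1 member had an unadjusted p under 0.05, Mpg (0.38 ± 0.17, adjusted p = 0.449). For benzene the background was 0.0891%, and 3 members had an unadjusted p under 0.05: Neil1 (0.45 ± 0.14), Neil3 (-0.39 ± 0.13) and Polb (0.18 ± 0.08), with adjusted p from 0.415 to 0.504. Outside repair, 2 of 11 p53 targets were called higher with benzene by limma. They were Phlda3 (0.69 ± 0.12, adjusted p = 0.00175) and Zmat3 (0.49 ± 0.11, adjusted p = 0.0404). Of the 11 changes 10 were positive, with a median of 0.16. In the mice given 2,2-bis(bromomethyl)-1,3-propanediol no gene at all was called (0%), and 4 members had an unadjusted p under 0.05. Nbn read 5.76, 5.88, 5.91 and 6.11 with that chemical and 7.46, 6.42, 6.75 and 6.82 in the feed controls of set 2. These groups did not overlap, and the change was -0.95 ± 0.30 (adjusted p = 0.303).

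Among the negative chemicals, 0 members were called with N-(1-naphthyl)ethylenediamine dihydrochloride, pentachloronitrobenzene and diazinon, each with 1 gene called of all (0.00685%), or with 4-nitroanthranilic acid and 2-chloromethylpyridine hydrochloride, with none (0%). At unadjusted p under 0.05 these 5 chemicals had 3, 0, 5, 1 and 2 members. The largest of them was Brca2, the recombination mediator, with N-(1-naphthyl)ethylenediamine dihydrochloride (0.55 ± 0.16, adjusted p = 0.427). For diazinon the 5 were Parp1 (0.24 ± 0.08), the replication ligase Lig1 (0.35 ± 0.12) and Ung (0.26 ± 0.11), all positive, and Polb and Ercc5, both negative. For 2-chloromethylpyridine hydrochloride they were Rad50 (0.38 ± 0.15) and Ung (-0.28 ± 0.11), measured against the same water controls as N-methylolacrylamide.

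Beside those member counts, the shares of all genes with an unadjusted p under 0.05 were as follows. In the positive class they were 8.85% for 1,5-naphthalenediamine, 17% for 2,3-benzofuran, 16.7% for coumarin, 19.3% for 1,2-dibromoethane, 9.47% for benzene, 34.6% for N-methylolacrylamide and 10.7% for 2,2-bis(bromomethyl)-1,3-propanediol. In the negative class they were 7.56% for N-(1-naphthyl)ethylenediamine dihydrochloride, 2.94% for pentachloronitrobenzene, 1.86% for 4-nitroanthranilic acid, 17.5% for malathion, 4.89% for diazinon and 11.7% for 2-chloromethylpyridine hydrochloride. The member share was above that of all genes for 7 of the 13 chemicals and below it for 6, and none of these differences was tested.

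**Figure D4:**
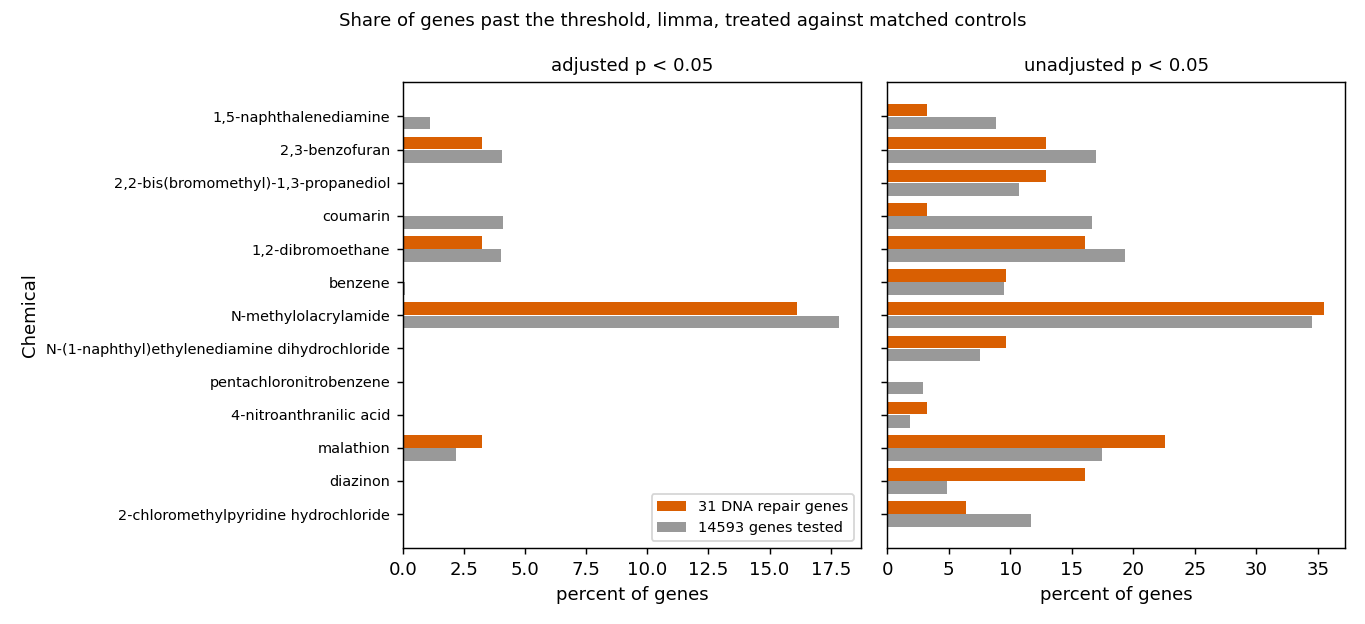
Percent of genes (horizontal axis) past an adjusted p of 0.05 (left panel) and an unadjusted p of 0.05 (right panel) with each chemical (vertical axis), for the 31 DNA repair genes and for all 14593 genes tested. With N-methylolacrylamide 16.1% of the repair genes and 17.9% of all genes passed the adjusted threshold.

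The range over the chemicals is given here for the other members and for Ung. Over the 13 chemicals the changes of Lig3, which seals nicks with its scaffold Xrcc1, ran from -0.13 to 0.11 and those of Xrcc1 from -0.21 to 0.21. Those of Apex1 ran from -0.06 to 0.22, of Lig1 from -0.17 to 0.35, of Parp1 from -0.18 to 0.24 and of Parp2 from -0.16 to 0.25. Among glycosylases Mpg, which removes alkylated purines, was positive with 11 of 13 chemicals, from -0.13 to 0.45, with an unadjusted p under 0.05 in 4 and no call. Ung ran from -0.38 to 0.32, Ogg1 from -0.22 to 0.31, Neil1 from -0.34 to 0.45 and Neil3 from -0.39 to 0.25.

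In nucleotide excision and translesion repair, Xpa, which verifies the lesion, ran from -0.32 to 0.20, the translesion polymerase Polh from -0.32 to 0.19, the nuclease subunit Ercc1 from -0.23 to 0.21 and the helicase Ercc2 from -0.08 to 0.26, none called. The mismatch genes Msh6 (-0.38 to 0.54) and Pms2 (-0.16 to 0.11), the methyltransferase Mgmt (-0.19 to 0.27), Brca2 (-0.10 to 0.55) and Fancd2 (-0.15 to 0.21) were never called. Neither were the end joining genes Xrcc5 (-0.26 to 0.42), Xrcc6 (-0.21 to 0.26) and Lig4 (-0.39 to 0.55), nor Atm (-0.38 to 0.61) and Chek2 (-0.39 to 0.59). The members that moved most between chemicals were Nbn (-0.95 to 1.09) and Atr (-0.38 to 0.87). They also varied most between mice of 1 group, with a residual SD of 0.44 and 0.45, against 0.10 for Parp1 and 0.12 for Pms2 and Ercc1.

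Tumour class gave no call among the members. Each of the 13 chemicals was taken as 1 value, the treated minus the control mean, and the 7 positive were compared with the 6 negative ones by limma. Several of these values share their controls and are not independent. All chemicals in corn oil were positive, and all negative ones but 2-chloromethylpyridine hydrochloride were in feed. Class and vehicle therefore cannot be fully told apart. In all 14593 genes 0 were called (0%), and 943 had an unadjusted p under 0.05 (6.46%), of which 2 were members. Chek2, the checkpoint kinase downstream of Atm, had a mean change of 0.19 in the positive and of -0.17 in the negative class, a difference of 0.36 ± 0.11 (unadjusted p = 0.0058, adjusted p = 0.746). Xrcc5, which binds broken ends, had 0.16 against -0.06, a difference of 0.23 ± 0.09 (unadjusted p = 0.022, adjusted p = 0.746). The median difference of the 31 members was 0.02, beside 0.01 for all genes. Of the ciliated cell markers 9 of 9 had positive differences, with a median of 0.38, 7 with an unadjusted p under 0.05 and 0 called by limma, and their part was not tested.

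1,5-Naphthalenediamine and N-(1-naphthyl)ethylenediamine dihydrochloride, naphthalene amines of opposite tumour class fed at the same 2000 ppm, could be compared directly, 3 mice against 3. The first carries an amino group on each ring, and the second carries 1 naphthyl group on an ethylenediamine chain. This was the one pair compared for a named difference in structure. None of the 31 members was called (0, against 1.67% of all genes, by limma). At unadjusted p under 0.05 there were 3 members (9.68%, against 10.7% of all genes). The first minus the second was 0.56 ± 0.22 for Chek2 (adjusted p = 0.267), 0.44 ± 0.19 for Xrcc5 (adjusted p = 0.350), and -0.42 ± 0.16 for Brca2 (adjusted p = 0.263). Chek2 read 6.49, 6.46 and 6.55 with the first and 5.94, 5.87 and 6.00 with the second, without overlap, and the 95% interval of its difference was 0.12 to 1.01. Over all 31 members the intervals reached from -0.74 for Brca2 to 1.02 for Atr, so that differences of that size remain possible with these mice. In the same comparison 3 of 9 B and plasma cell markers were called higher (mean levels of 8.28 to 8.81 against 7.12 to 7.32), as were 2 of 9 ciliated cell markers (8.56 to 8.61 against 8.03 to 8.12) and Marco of 10 neutrophil and macrophage markers (9.02 to 9.24 against 8.67 to 8.94). All 9 ciliated changes were positive, with a median of 0.52, and the part of these markers was not tested.

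Several members differed between the sets by more than with any of the 13 chemicals, which is given as a description with no test. Of the 31 members 4 had arrays of set 1 and set 2 that did not overlap at all (12.9%, against 4.08% of all genes), Atr, Nbn and Rad50 higher and Xrcc1 lower in set 1. Atr lay between 6.43 and 7.30 in the 18 mice of set 1 and between 4.12 and 6.25 in the 52 of set 2, a difference of means of 1.76. Nbn ran from 7.85 to 8.54 and from 5.22 to 7.67 (1.65), and Rad50 from 8.15 to 8.77 and from 6.59 to 7.91 (1.36). Atm (1.47) and Lig4 (1.38) were also higher in set 1, with overlap. Xrcc1 lay between 6.71 and 7.13 in set 1 and between 7.30 and 7.90 in set 2 (-0.68), and Neil1 (-0.65) and Lig1 (-0.58) had negative differences with overlap.

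The same was seen in untreated mice on corn oil and on feed, the vehicles that both sets had. The difference of Atr between the sets was 1.83 in corn oil controls and 1.75 in feed controls, and that of Xrcc1 was -0.72 and -0.74. The median difference of the 31 members was -0.02, beside -0.16 for all genes. The RNA integrity number in the labels had a median of 8.9 in set 1 (15 mice with a number) and of 8.2 in set 2 (42 mice). The 3′ minus 5′ difference pointed the other way. Its median was 0.272 in set 1 (range 0.093 to 0.523) and 0.181 in set 2 (0.083 to 0.989). The amount handed to the array core was given by mass in set 1 (10 µg in all 18 mice). In set 2 it was given by volume (10 µl in 9 mice and 15 µl in 43), so that the amounts cannot be compared. The part of RNA integrity in these differences was not tested, and all comparisons with chemicals were made within a set.

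Some pairs of members varied together between mice of the same group, at a rate near that of all gene pairs. After subtracting group means, Nbn and Atr had a Pearson's r of 0.80 and a Spearman's rho of 0.77 over 70 mice (permutation p = 1e-05 for each, animals permuted within groups, the smallest that 100000 permutations can give; adjusted p = 0.000291 and 0.000423 over 465 pairs). It was 0.76 without the 2 mice farthest from the median, 0.82 in set 2 and 0.26 in set 1, so the relation rests on set 2. Lig4 and Atr had 0.77 (rho 0.66, permutation p = 1e-05), 0.73 without the 2 farthest mice, 0.83 in set 2 and -0.01 in set 1. For Rad50 and Atm it was 0.69 (rho 0.66, permutation p = 1e-05), 0.64 without 2 mice, 0.68 in set 2 and 0.74 in set 1.

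Of the 465 pairs of members 131 passed an adjusted permutation p of 0.05, 82 positive and 49 negative. Pairs with r over 0.5 made up 6.45%, beside 5.97% of all pairs of the genes tested, and pairs under -0.5 made up 4.09%, beside 3.49%. These shares lie near each other. In the clustered map of correlations Rad50, Atm, Lig4, Nbn, Atr, Ercc5 and Msh6 stood side by side, with all 21 pairs positive, from 0.30 to 0.80. This group was picked with the values in view, and 5 of the 7 are the members with the largest difference between the sets. In set 2 all 21 pairs were positive with a median of 0.67, and in set 1 there were 11, with a median of 0.16. Negative pairs joined these genes with others, such as Atm with Ercc1 (r = -0.61, rho = -0.61, permutation p = 1e-05; -0.64 in set 1, -0.61 in set 2 and -0.59 without 2 mice) and Msh6 with Mgmt (r = -0.64, rho = -0.65, permutation p = 1e-05; -0.74 in set 1, -0.63 in set 2 and -0.59 without 2 mice).

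**Figure D5:**
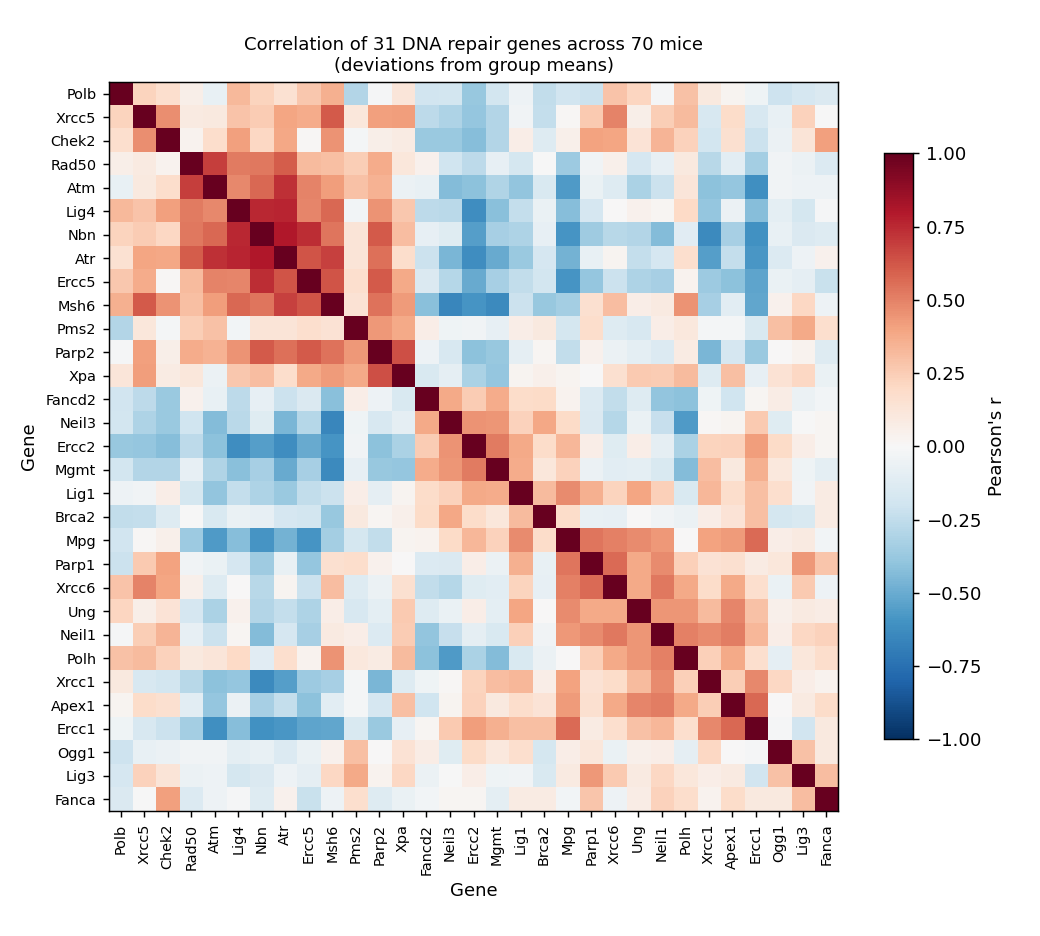
Pearson's r (colour) between each pair of the 31 DNA repair genes (both axes, in clustered order) over 70 mice, on deviations from group means. The red block from Rad50 to Msh6 holds 21 pairs with r from 0.30 to 0.80, and its blue counterparts include Ercc1, Ercc2, Mpg and Xrcc1.

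Marker genes of other cell types varied with some of these members across mice. The members taken were Nbn, Atr, Rad50, Ercc5 and Ung, called with N-methylolacrylamide, and Mpg, which was not called. Polb and Fanca, also called members, were left out, so the adjusted p-values hold for this choice of members only. For 6 members and 8 measures, 48 relations in all, Atr had r = 0.65 with the mean of ciliated cell markers (rho 0.60, permutation p = 1e-05, adjusted p = 0.00048), 0.61 without 2 mice, 0.72 in set 2 and 0.06 in set 1. Nbn had 0.56 (rho 0.58, permutation p = 8e-05, adjusted p = 0.00192), 0.55 without 2 mice, 0.57 in set 2 and 0.59 in set 1. Ung had r = 0.49 with T and NK cell markers (rho 0.44, permutation p = 0.00073, adjusted p = 0.00876), 0.45 without 2 mice, 0.38 in set 2 and 0.84 in set 1. Mpg had 0.54 with the same markers (rho 0.46, permutation p = 0.00037, adjusted p = 0.00592), 0.45 without 2 mice, 0.51 in set 2 and 0.65 in set 1. Ercc5 had 0.26 with the 3′ minus 5′ difference (rho 0.30, permutation p = 0.0049, adjusted p = 0.047), 0.29 without 2 mice, 0.25 in set 2 and 0.46 in set 1. For Rad50 none of the 8 measures passed.

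Since many repair genes are transcribed before cell division, the members were also set against the mean of 18 proliferation markers. Of the 31, 1 passed, Lig1, the ligase that joins Okazaki fragments. Its r was 0.49 (permutation p = 0.00039, adjusted p = 0.0121) and its rho 0.45 (permutation p = 0.00105, adjusted p = 0.0325) over 70 mice. It was 0.42 without the 2 mice farthest from the median, 0.53 in set 2 and 0.36 in set 1. Ung came next with 0.38 (rho 0.39, adjusted p = 0.107), 0.76 in set 1 and 0.26 in set 2.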

How the data were processed

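Total lung RNA, purified with Trizol and RNeasy columns per the labels' protocols, was biotin labelled and hybridised to Affymetrix mouse arrays, 1 array per mouse. The deposited values are log2 signals of 45101 probe sets, with array medians of 5.41 to 5.52; that they are log2 was read from their range of 2.47 to 14.5, and the summarization and normalization the authors used are not given in the sources used here. They were used as deposited. Symbols came from the platform table: 34945 probe sets had 1 symbol, 932 several and 9160 none, and 64 control probe sets were left out. The brightest probe set by mean over 70 arrays stood for each gene, and genes above the 30th percentile of probe sets (4.25) were kept. limma 3.58.1 in R 4.3.3 fitted 1 mean per group over all 18 groups; a gene was called at a Benjamini-Hochberg adjusted p under 0.05 over 14593 genes within a comparison. Each chemical was compared with the controls of its vehicle and set. Mice were the replicates. The highest correlation between arrays was 0.997, and 0 pairs were identical. Correlations used deviations from group means and 100000 permutations within groups (Python 3.11.15). The procedure was tested on simulated data. Members and gene lists were chosen with earlier results of these data known. Every called member is named with its values, up to 8 per comparison, and up to 6 called genes of each other pathway list per comparison. The comparison of sets, the group of 7 correlated genes and the promoter windows were added after seeing the data. Alternatives were no filter or the 50th percentile, mean over probe sets, quantile normalization again, 2 groups only, a variance trend, array weights, an RNA integrity covariate, the RNA volume handed over as a block in set 2, other controls and leaving out each mouse.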

Additional observations from a re-analysis of the deposited data

Results flagged for a closer look

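One feed control of set 2, mouse 2-44, had a Polb signal of 9.40, apart from the nearest of the other controls at 9.24. Its gap made up 0.849 of the range of the 4 mice, above Dixon's limit of 0.829; chance picks about 5% of groups, and 1 of the 14 groups of a called gene that were looked at was picked. Without that mouse the change of Polb with malathion was -0.34 (adjusted p = 0.0773 by limma).

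The change of Polb differed between 2,3-benzofuran in corn oil (0.38, n = 3 treated and 3 control mice) and malathion in feed (-0.39, n = 4 and 4) by 0.77 ± 0.14 (adjusted p = 0.00163 by limma). The chemicals differ in set, vehicle and class, and these cannot be told apart. The contrast was chosen after seeing the data, from comparisons that had called Polb in opposite directions. Its adjusted p does not allow for that choice. With 2,3-benzofuran the probe sets of Polb differed in sign. The feed controls of set 2 had the highest mean of Polb among the 18 groups (9.26).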

How the results depend on the processing

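The 5 calls with N-methylolacrylamide kept their direction under the alternatives that gave them a value, with changes from 0.45 to 1.35 for Nbn, 0.18 to 0.63 for Rad50, 0.45 to 1.02 for Atr, 0.16 to 0.74 for Ercc5 and -0.46 to -0.11 for Ung. Their number was 0 with water and corn oil controls pooled, 0 against 2-chloromethylpyridine hydrochloride (an alternative chosen after seeing the data), 12 with array weights, and 0 to 8 when single mice were left out. Polb with 2,3-benzofuran turned to -0.069 with the mean over all probe sets, where its probe sets differed in sign. With that mean 0 members were called for 2,3-benzofuran, 1,2-dibromoethane and malathion, and 2 passed against proliferation markers. With only the arrays of the groups compared there were 0 for 2,3-benzofuran and for 1,2-dibromoethane, 2 for malathion and 1 between the naphthalene amines. Array weights gave 0 for 2,3-benzofuran and 1,2-dibromoethane, 1 for benzene and for N-(1-naphthyl)ethylenediamine dihydrochloride, 6 for 2,2-bis(bromomethyl)-1,3-propanediol, 6 for malathion, 3 for diazinon and 3 between the naphthalene amines. The 50th percentile filter removed Ung and Fanca and left 0 for 1,2-dibromoethane. Leaving out single mice gave 0 to 3 for 2,3-benzofuran and 0 to 1 each for coumarin, 1,2-dibromoethane and malathion. Apart from the removal of Ung and Fanca and the probe sets of Polb, the cause was not tested. The share of all genes called under each alternative is not given here, so these counts of members have no background beside them. No filter, quantile normalization, the variance trend and the integrity covariate moved no count of called members by over 1.5 times. No paired analysis was possible because the mice carry identifiers of their own and share no replicate numbers across groups. Groups of 3 or 4 mice and the low signal of several members limit what could be called.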
